A study of Mus musculus with 16 samples.

Results

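The transcription factors best known for driving epithelial-mesenchymal transition (EMT) were followed through 12 RNA libraries of cultured mouse male germline stem cells. The 8 genes were chosen by name, with earlier results of these data known. They were Snai1, Snai2, Twist1, Twist2, Zeb1, Zeb2, Foxc2 and Prrx1, out of 27128 genes in each table. All 8 were found under these symbols, and 7 reached a mean of at least 1 CPM (counts scaled for library size) over the 12 libraries; Snai2 did not. The cultures started from germ cells of B6;CBA-Tg(Pou5f1-EGFP)2Mnn/J mice at postnatal day 5.5, in which the Pou5f1 (Oct4) promoter drives green fluorescent protein (GFP), and the founding cells were sorted as Oct4-positive and KIT-negative. All cultures shared StemPro-34 medium with GDNF, bFGF and EGF.

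The libraries belong to 4 experiments, and every group is a single library. The feeder-removal series holds cells on mouse embryonic fibroblast (MEF) feeders at day 0, and cells 4 and 9 days after their transfer to Matrigel, a basement membrane extract. The density experiment sets a culture called epithelial-like, on Matrigel at 0.1 µg/cm2, against one called mesenchymal-like, at 10 µg/cm2. In the sorted series, cells from the higher density (10 µg/cm2) were divided by their GFP into low, mid and high fractions, written GFP-low, GFP-mid and GFP-high. The inhibitor series holds cells kept on MEF feeders, either in the solvent DMSO or for 48 hours in UNC0638 at 0.5, 1 or 2 µM. UNC0638 blocks G9a (Ehmt2) and GLP (Ehmt1), enzymes that methylate histone H3. Whether a library pooled several cultures or animals, and which strain gave the MEF cells, is not given in the sources used here.

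In EMT, cells held together by E-cadherin lose their junctions and take on a motile, matrix-producing state. SNAI1 and SNAI2 are zinc-finger repressors that bind E-box motifs in the promoters of junction genes such as Cdh1, and ZEB1 and ZEB2 bind related E-boxes through zinc fingers and recruit corepressors. TWIST1 and TWIST2 are basic helix-loop-helix proteins that bind E-boxes as dimers with E proteins, FOXC2 is a forkhead factor of mesoderm and vessels, and PRRX1 is a homeobox factor of limb and craniofacial mesenchyme. Fibroblasts are mesenchymal cells and normally carry several of these factors, and Zeb2 is also a factor of macrophages. A change of these transcripts in a bulk sample cannot tell fewer or more cells of a type from less or more RNA per cell.

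The promoters of 4 of the factors are shown because the results separate them. Snai1 and Twist1 had 15 counts or more in every library. Twist2 and Prrx1 were highest in the same 2 libraries and at or near the smallest visible level in the sorted cells. Each sequence is the 250 bases before the annotated start, 5′ to 3′ on the gene's strand, from RefSeq on GRCm38.p6, with every E-box of the form CANNTG in capitals.
Snai1: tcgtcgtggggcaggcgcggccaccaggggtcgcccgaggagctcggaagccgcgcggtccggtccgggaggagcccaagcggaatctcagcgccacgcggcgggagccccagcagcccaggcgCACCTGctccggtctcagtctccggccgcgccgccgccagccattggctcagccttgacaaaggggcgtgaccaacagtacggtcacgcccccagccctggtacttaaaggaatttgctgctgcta
Twist1: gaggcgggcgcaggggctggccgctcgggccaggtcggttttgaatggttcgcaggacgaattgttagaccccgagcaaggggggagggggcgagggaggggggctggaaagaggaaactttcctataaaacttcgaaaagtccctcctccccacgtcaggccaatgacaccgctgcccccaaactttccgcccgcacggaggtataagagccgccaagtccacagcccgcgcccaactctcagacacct
Twist2: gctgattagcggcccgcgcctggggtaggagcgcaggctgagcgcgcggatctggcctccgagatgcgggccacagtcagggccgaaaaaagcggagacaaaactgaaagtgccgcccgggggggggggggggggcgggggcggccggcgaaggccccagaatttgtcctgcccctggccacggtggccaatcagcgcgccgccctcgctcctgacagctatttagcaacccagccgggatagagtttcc
Prrx1: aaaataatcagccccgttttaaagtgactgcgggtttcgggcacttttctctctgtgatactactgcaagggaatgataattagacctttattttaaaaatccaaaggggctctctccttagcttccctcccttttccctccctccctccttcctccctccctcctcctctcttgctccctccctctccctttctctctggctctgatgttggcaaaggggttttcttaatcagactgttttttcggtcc

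The Snai1 stretch lies at chr2:167537945-167538194 on the plus strand, and Twist1's lies at chr12:33957421-33957670 on the plus strand. Those of Twist2 and Prrx1 lie at chr1:91801211-91801460 on the plus strand and at chr1:163313651-163313900 on the minus strand. CANNTG, which reads the same on both strands, was found in 1 of the 4 stretches: Snai1 holds a single copy, CACCTG, whose first base is at position -126 from the start. Over all 32851 starts of the same table, 66.2% of such stretches hold a CANNTG, and 17.2% hold its form CACCTG or CAGGTG, the pair of strands of the E-box bound by SNAI and ZEB proteins. Base composition also differs among the 4. Snai1 has 27 CpG dinucleotides, Twist2 has 23 and Twist1 has 18, whereas Prrx1 has 4, against a median of 6 over all starts. The GC content is 70% for Snai1, 68.8% for Twist2, 62.4% for Twist1 and 47.6% for Prrx1, against a median of 52.4%. Zeb2 has 4 starts in the table, none with a CANNTG; Foxc2, Snai2 and Zeb1 are missing entries.

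Library totals ran from 4335185 to 12019651 expected counts, so that 3 counts, taken as the smallest visible level, correspond to 0.238 to 0.724 CPM. A single library per group leaves the spread between replicates unknown, so conditions could not be tested against each other. Intervals below are 95% intervals that cover counting error only. Experiments may also differ in batch, which cannot be told apart from the experiment. All 17 germ-cell markers examined had counts in all 12 libraries, and their summed level lay between 4861 and 7348 CPM. The summed level of 20 fibroblast markers was 8292 CPM in the mesenchymal-like library, 3789 CPM with DMSO and 1444 CPM with 0.5 µM UNC0638, and 151 to 838 CPM in the other 9 libraries. The 3 libraries with the highest sums are called fibroblast-rich below. Between 0 and 4 of the 20 markers had no counts in a library. The summed level of 10 macrophage markers was 1830 CPM in GFP-low, 1674 CPM in GFP-mid and 216 CPM in GFP-high, against 7.52 to 43.5 CPM elsewhere.

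**Figure D1:**
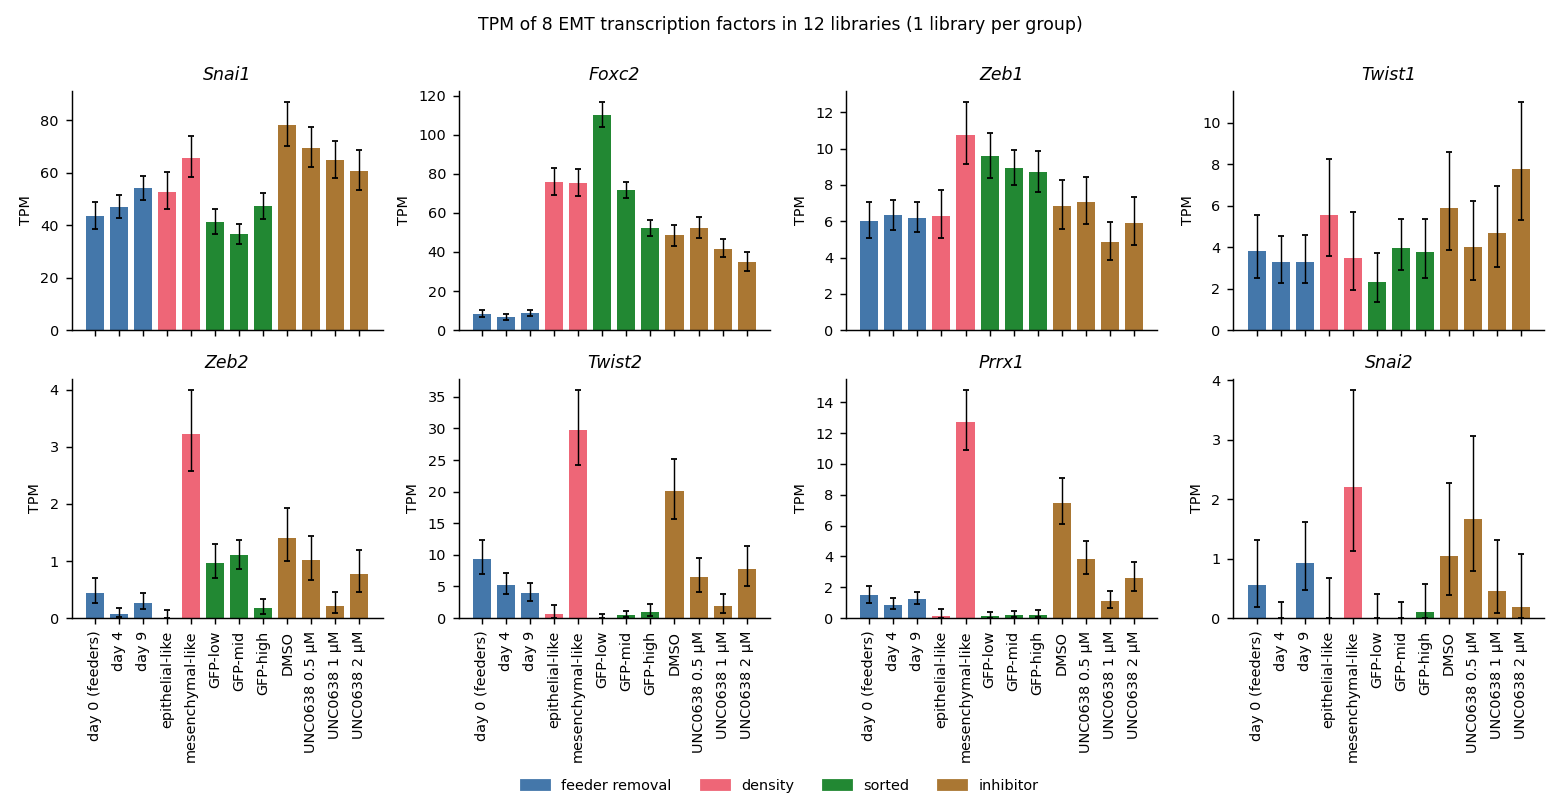
Deposited TPM (a length-scaled level) of the 8 factors in the 12 libraries, as a bar per library coloured by experiment, with 95% counting intervals as error bars and a vertical axis of its own for each gene. Snai1 stays between 36.47 and 78.20 TPM, and Foxc2 is at 6.59 to 8.82 TPM in the feeder-removal series and at 34.69 TPM or more elsewhere.

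TPM values are scaled for transcript length, so they allow levels to be set side by side between genes. Snai1 and Foxc2 together made up 69.5% (mesenchymal-like) to 92.1% (GFP-low) of the summed TPM of the 8 factors, and the sum ran from 69.3 TPM at day 4 to 203 TPM in the mesenchymal-like library. Foxc2 was the most abundant of the 8 in the density and sorted libraries, and Snai1 was the most abundant in the feeder-removal and inhibitor libraries. All 8 factors reached 1 TPM in the mesenchymal-like, DMSO and 0.5 µM UNC0638 libraries. In the other 9 libraries, 4 to 6 did.

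Presence in the sorted fractions separated the factors. Snai1, Twist1, Zeb1, Zeb2 and Foxc2, 5 of the 8, had more than 3 counts in each of the 3 fractions. Twist2 and Prrx1 passed 3 counts in some fractions, and Snai2 in none. When at least 10 counts or at least 1 TPM were asked for, Zeb2 was left in some fractions only, and Twist2, Prrx1 and Snai2 were in none. With counts scaled to the smallest of the 12 library totals, Zeb2 stayed in all 3 fractions, and Twist2, Prrx1 and Snai2 were in none. Presence therefore depended on the level asked for in the case of Zeb2, and on the level or the depth for Twist2 and Prrx1, and not for the other 5.

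Snai1 was the steadiest factor and one of the 2 most abundant. It was at 43.42, 46.92 and 54.09 TPM at days 0, 4 and 9, and at 52.67 TPM in the epithelial-like and 65.73 TPM in the mesenchymal-like library. Sorting by GFP gave 41.22 TPM in GFP-low, 36.47 in GFP-mid and 47.10 in GFP-high, a small spread with the lowest level in the middle fraction. With DMSO it reached 78.20 TPM, its highest level, and with 0.5, 1 and 2 µM UNC0638 it was at 69.37, 64.65 and 60.64 TPM. The highest value was 2.14 times the lowest, the narrowest range among the 8. Within each library, 83.2% to 91.1% of genes lay below Snai1. The 3 sorted fractions were among the 5 lowest levels, and the intervals of GFP-low (36.6 to 46.2 TPM) and day 0 (38.6 to 48.6 TPM) overlap.

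Foxc2 was lower in the feeder-removal series than in the other 3 experiments. It stood at 8.24, 6.59 and 8.82 TPM at days 0, 4 and 9, from 85, 103 and 133 counts. The epithelial-like library had 75.76 TPM and the mesenchymal-like library had 75.41 TPM, so the 2 densities were nearly level. The sorted fractions had 110.27 TPM in GFP-low, 71.61 TPM in GFP-mid and 52.12 TPM in GFP-high. The inhibitor series had 48.45 TPM with DMSO and 52.17, 41.75 and 34.69 TPM with 0.5, 1 and 2 µM UNC0638. The 3 feeder-removal libraries lie below the other 9 without overlap, also against cells on the same kind of feeder with DMSO; the batches of the experiments are not given, and no cause was tested. GFP-low had 1179 counts, the highest of any factor in any library.

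Zeb1 had 83 counts or more in all 12 libraries. Days 0, 4 and 9 had 6.0, 6.32 and 6.2 TPM, and the epithelial-like library had 6.28 TPM against 10.76 TPM in the mesenchymal-like library. The sorted fractions had 9.58, 8.94 and 8.70 TPM in the order GFP-low, GFP-mid and GFP-high. With DMSO and 0.5, 1 and 2 µM UNC0638 it was at 6.83, 7.05, 4.84 and 5.91 TPM. The 4 highest libraries are thus the mesenchymal-like one and the 3 fractions, all grown at 10 µg/cm2 of Matrigel. Their intervals overlap, with 9.16 to 12.6 TPM in the mesenchymal-like library and 8.40 to 10.9 TPM in GFP-low.

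Twist1 was low in all 12 libraries. It lay between 2.33 TPM (17 counts, GFP-low) and 7.80 TPM (32 counts, 2 µM UNC0638), a 3.35-fold range. The counts ran from 15 to 44, so neighbouring levels in this range mostly overlap in their counting intervals. At days 0, 4 and 9 it was at 3.82, 3.28 and 3.29 TPM, and GFP-mid and GFP-high had 3.98 and 3.75 TPM. The epithelial-like library, with 5.56 TPM, was above the mesenchymal-like one, with 3.46 TPM, in contrast to the other factors apart from Foxc2. DMSO, 0.5 µM and 1 µM UNC0638 gave 5.90, 3.99 and 4.71 TPM. The interval of the highest library, 5.33 to 11 TPM, overlaps that of DMSO, 3.89 to 8.58 TPM. It lies above that of GFP-low, 1.36 to 3.73 TPM.

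Zeb2 was highest in the fibroblast-rich libraries and in the fractions with the most macrophage transcripts. It had 3.23 TPM (85 counts) in the mesenchymal-like library, 1.41 TPM with DMSO and 1.01 TPM with 0.5 µM UNC0638, then 0.22 and 0.77 TPM with 1 and 2 µM. The epithelial-like library had 0 counts, where 3 counts would be 0.704 CPM and the 95% counting limit is 0.866 CPM. Days 0, 4 and 9 had 0.44, 0.08 and 0.27 TPM, and GFP-low, GFP-mid and GFP-high had 0.96, 1.10 and 0.17 TPM. In the sorted series the GFP-high fraction is therefore apart from the other 2.

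The macrophage markers moved with Zeb2 across the fractions. Zeb2 stood at 5.39 CPM in GFP-low, 5.86 CPM in GFP-mid and 0.849 CPM in GFP-high, so GFP-low was 6.35-fold and GFP-mid 6.90-fold above GFP-high. Csf1r, the receptor that macrophages need for survival, was 10.1-fold higher in GFP-low than in GFP-high. The macrophage surface gene Emr1 (Adgre1, F4/80) was 8.58-fold higher, the lysozyme gene Lyzs (Lyz2) 8.35-fold, and the complement gene C1qa 11.1-fold. Ptprc, which encodes the leukocyte surface protein CD45, was 6.40-fold higher. Mpeg1 was 17.0-fold, C1qb 8.94-fold, Cd14 4.13-fold and Cd68 3.73-fold higher, the last 2 below the fold of Zeb2. Of the 9 macrophage markers that passed the filter, 9 were at least 2-fold lower in GFP-high than in GFP-low, with a median log2 ratio of -3.03. Of all genes tested, 2.59% were lower. Csf1r, Emr1, Mpeg1 and C1qa stayed under 1 CPM in every library outside the sorted series. They passed the filter mainly through GFP-low and GFP-mid, where they are high, so the count of markers is a description. All 10 markers had counts in GFP-mid and GFP-high, and 1 of 10, Fcgr1, was at 0 in GFP-low. Per 1000 counts of the macrophage markers, Zeb2 had 2.95 counts (2.13 to 3.97) in GFP-low, 3.50 (2.75 to 4.40) in GFP-mid and 3.93 (1.69 to 7.73) in GFP-high, and these intervals overlap. Lyzs alone made up most of the summed markers, at 1524, 1353 and 182 CPM in GFP-low, GFP-mid and GFP-high, so this ratio is mainly to Lyzs. Zeb1, the paralogue, was 1.22-fold higher in GFP-low than in GFP-high. The part of macrophage RNA in the Zeb2 values was not tested. In the mesenchymal-like library Zeb2 was at 20.5 CPM, above every fraction, beside a macrophage sum of 43.5 CPM. That sum was 23.0 CPM in the epithelial-like library, where Zeb2 had 0 counts.

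**Figure D2:**
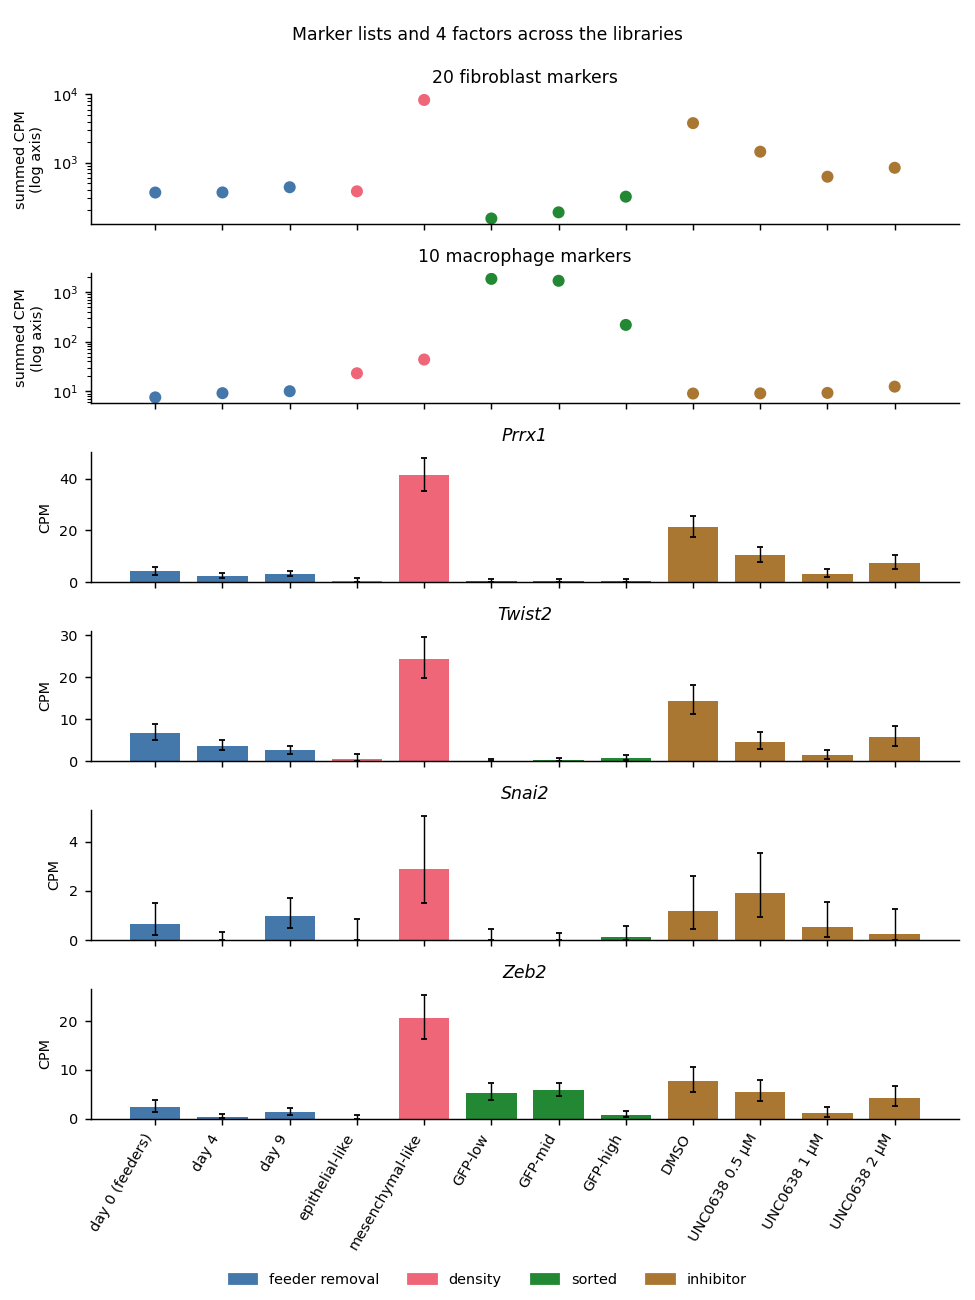
Summed CPM of the fibroblast and macrophage markers set beside the CPM of 4 factors in the 12 libraries, 1 value per library coloured by experiment. The marker sums are points on log axes, and Prrx1, Twist2, Snai2 and Zeb2 are bars on linear axes with 95% counting intervals. The fibroblast sum peaks at 8292 CPM in the mesenchymal-like library, where Prrx1 and Twist2 are also highest, and the macrophage sum peaks in GFP-low and GFP-mid, where Zeb2 is above GFP-high.

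Twist2 varied more than Twist1. It reached 29.69 TPM (101 counts) in the mesenchymal-like library and 20.03 TPM (72 counts) with DMSO. It was at 6.43, 1.92 and 7.76 TPM with 0.5, 1 and 2 µM UNC0638, and at 9.38, 5.26 and 3.95 TPM at days 0, 4 and 9. The epithelial-like library had 2 counts (0.59 TPM), and GFP-low, GFP-mid and GFP-high had 0, 4 and 6 counts, or 0, 0.46 and 0.99 TPM. In GFP-low, 3 counts would be 0.376 CPM and the 95% counting limit of 0 counts is 0.463 CPM, so a lower level was not detectable at this depth.

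Prrx1 was highest and lowest in similar libraries. It reached 12.73 TPM (171 counts) in the mesenchymal-like library, 7.49 TPM with DMSO and 3.82 TPM with 0.5 µM UNC0638, against 1.12 and 2.58 TPM with 1 and 2 µM. Days 0, 4 and 9 had 1.47, 0.88 and 1.26 TPM. The epithelial-like library had 2 counts (0.16 TPM), and GFP-low, GFP-mid and GFP-high had 3, 7 and 5 counts, or 0.14, 0.21 and 0.23 TPM. The highest value was 90.9 times the lowest. The 3 fractions and the epithelial-like library therefore lie at or near 3 counts for Prrx1, and the 3 fibroblast-rich libraries are the 3 highest.

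Snai2 was barely detected. Its highest counts were 12 at day 9 (0.92 TPM), 12 in the mesenchymal-like library (2.20 TPM) and 10 with 0.5 µM UNC0638 (1.67 TPM). Day 0 had 5 counts, DMSO had 6, and 1 and 2 µM UNC0638 had 3 and 1. Day 4, the epithelial-like library, GFP-low and GFP-mid had 0 counts, and GFP-high had 1. In all, 7 of the 12 libraries were at or under 3 counts.

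Twist2 and Prrx1 were also set against the fibroblast markers, by counting error alone and across single libraries. Per 1000 counts of the 20 fibroblast markers, Twist2 had 18.6 counts (13.9 to 24.3) at day 0, 3.79 (2.97 to 4.78) with DMSO and 2.94 (2.40 to 3.57) in the mesenchymal-like library. Prrx1 had 11.4 (7.81 to 16.1) at day 0, 5.58 with DMSO and 4.98 (4.26 to 5.78) in the mesenchymal-like library. The day 0 values are above the mesenchymal-like ones beyond counting error for both genes, while the DMSO values overlap them. The Twist2 intervals at days 4 and 9, 7.42 to 13.7 and 4.1 to 8.46, also lie above the mesenchymal-like one. Those of Prrx1 at days 4 and 9, 4.32 to 9.4 and 5.35 to 10.2, overlap the mesenchymal-like one. Within the feeder-removal series, the difference for Prrx1 was therefore beyond counting error at day 0 only. With 0.5, 1 and 2 µM UNC0638, Twist2 had 3.20 (2.05 to 4.76), 2.25 (0.973 to 4.44) and 6.83 (4.42 to 10.1) counts per 1000. Prrx1 had 7.34 (5.53 to 9.55), 5.35 (3.22 to 8.36) and 9.02 (6.21 to 12.7). At 2 µM the intervals of both genes lie above those of the mesenchymal-like library and overlap those of DMSO. The epithelial-like library had 1.24 for each gene, from 2 counts. In GFP-low, GFP-mid and GFP-high, Prrx1 had 2.49, 2.98 and 1.68.

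The levels per length of the TWIST pair and of the ZEB pair were set side by side. The ratio of Twist1 to Twist2 counts per transcript length was 0.408 (0.246 to 0.661) at day 0, 0.624 at day 4 and 0.834 (0.500 to 1.40) at day 9. It was 9.45 (2.35 to 82.5) in the epithelial-like library and 0.117 (0.0629 to 0.201) in the mesenchymal-like library, so Twist1 was the higher of the pair in the first and Twist2 in the second. In GFP-low Twist1 was at least 4.43-fold higher than Twist2 against the floor of 3 counts, with a counting interval from 3.23 upward, and in GFP-mid and GFP-high the ratio was 8.61 (3.14 to 33.0) and 3.78 (1.54 to 11.1). With DMSO and 0.5, 1 and 2 µM UNC0638 it was 0.294 (0.182 to 0.464), 0.621 (0.322 to 1.18), 2.45 (1.07 to 6.30) and 1.01 (0.577 to 1.77). At day 9 and with 0.5 and 2 µM UNC0638 the interval includes 1, so the pair was not separated there. Zeb1 was above Zeb2 in all 12 libraries. The lowest ratio of Zeb1 to Zeb2, per length, was 3.33 (2.54 to 4.38) in the mesenchymal-like library, with 4.85 under DMSO, 8.16 in GFP-mid, 9.93 in GFP-low and 51.6 in GFP-high. In the epithelial-like library Zeb1 was at least 54.2-fold higher than Zeb2 against that floor, with a counting interval from 43.2 upward.

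**Figure D3:**
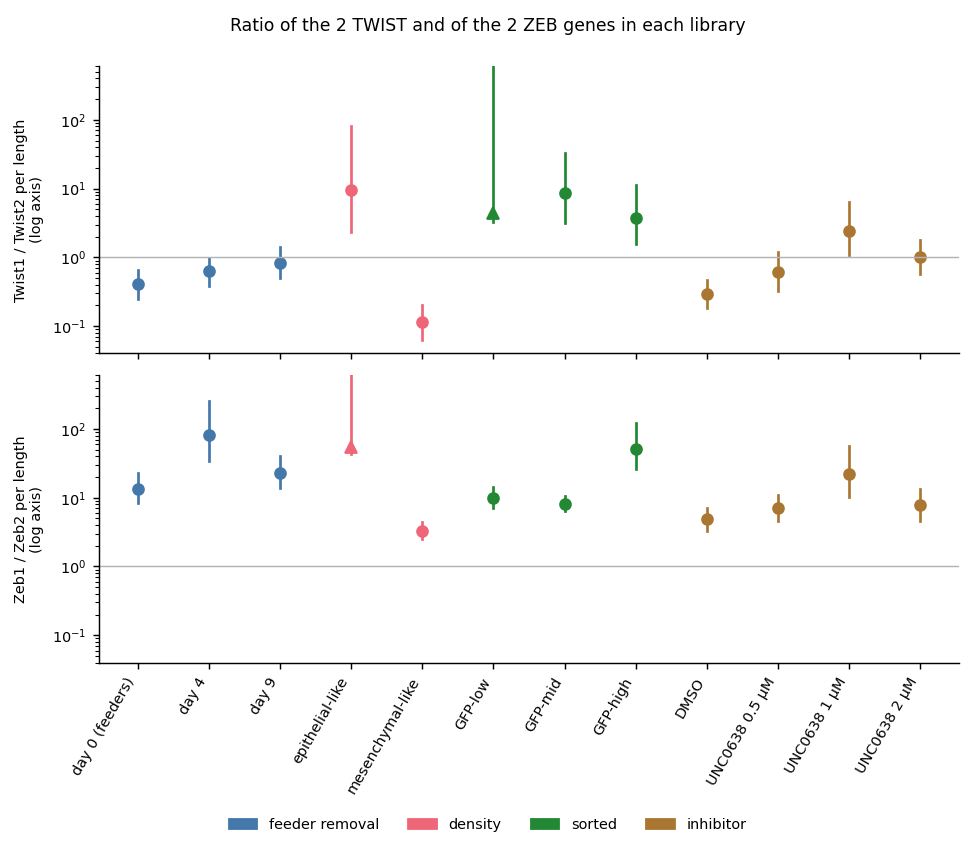
Ratio of Twist1 to Twist2 and of Zeb1 to Zeb2 in counts per transcript length, on a log axis, in each of the 12 libraries, with 95% counting intervals. Triangles are lower bounds against a library with 0 counts, and the grey line marks equal levels. Twist1 to Twist2 is 0.117 in the mesenchymal-like and 9.45 in the epithelial-like library, with no upper limit in GFP-low, and Zeb1 to Zeb2 stays above 1 throughout.

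Comparisons within an experiment took 2 libraries at a time as the log2 ratio of CPM + 1, with a call where that ratio reached 2-fold. Folds and intervals below are without the pseudocount. The filter was a mean over all 12 libraries, which Twist2, Prrx1 and Zeb2 passed with the help of libraries where they were high, so counts of members are descriptions. The density experiment compared the epithelial-like with the mesenchymal-like culture. Of the 7 factors tested, 3 were at least 2-fold higher in the mesenchymal-like library, and none was lower; of all 14301 genes tested, 10.7% were higher and 1.78% lower by the same rule. Prrx1 was 88.0-fold higher (24.0 to 732), Twist2 was 52.0-fold higher (14.0 to 435) and Zeb2 was at least 29.1-fold higher against the floor of 3 counts, with a counting interval from 23.2 upward. With the deposited TPM its log2 ratio was 2.08, but its mean TPM fell under the filter of 1, so it was not tested. The wide intervals come from the 2 counts of Prrx1 and of Twist2 in the epithelial-like library. Snai2, under the filter, was at least 4.11-fold higher against that floor, from 12 counts and 0, with a counting interval from 2.86 upward. Zeb1 had a fold of 1.79 (1.38 to 2.34) and Snai1 of 1.29 (1.08 to 1.55), neither of which reached 2-fold, while their intervals lie above 1. Foxc2 (1.03, 0.908 to 1.18) and Twist1 (0.643, 0.314 to 1.28) had intervals that include 1. The median log2 ratio of the 7 factors was 0.81, and that of all genes was -0.06. The fibroblast markers moved with these factors: 18 of 19 tested were at least 2-fold higher, with a median log2 ratio of 4.45, and none was lower. Of 5 tested myoid and Leydig markers, 3 were higher (Acta2, Des and Tagln), with the sum of the 10 listed at 11.7 CPM in the epithelial-like and 261 CPM in the mesenchymal-like library. Of the 17 germ-cell markers, 15 were below 0 on the log2 scale, with a median of -0.29 and sums of 6073 and 4861 CPM, and none was called. Of the 9 macrophage markers tested, 9 were above 0, with a median of 0.67, and 1 was called higher. Their sums were 23.0 CPM in the epithelial-like and 43.5 CPM in the mesenchymal-like library. The part of these cell types in the result was not tested.

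Genes that EMT is known to raise behaved in the same comparison as follows. Of 15 such genes, 14 were at least 2-fold higher in the mesenchymal-like library, with a median log2 ratio of 3.97; Mmp9 was the exception. Vim, which encodes the intermediate filament vimentin, was 50-fold higher (41.9 to 60.1). Cdh2 (N-cadherin) was 13.7-fold higher, Fn1 (fibronectin) 10.4-fold, Sparc (a matrix glycoprotein) 38.1-fold and Itga5 (the fibronectin receptor subunit) 16.4-fold. Col1a1 and Col1a2 are also in the fibroblast list. Of 15 tested epithelial genes that the factors are known to repress, 2 were at least 2-fold lower and 1 was higher, with a median log2 ratio of -0.47. Krt8, an epithelial keratin, had 34 and 12 counts (0.363-fold), and Cldn4, a tight-junction claudin, had 5 and 0; Dsp, a desmosome gene, had 7 and 22 (3.23-fold). Cdh1, which encodes E-cadherin, had a fold of 1.27 (0.832 to 1.96), and it lay between 9.78 and 14.8 CPM in all 12 libraries. Tacstd1 (Epcam), an epithelial adhesion gene that germ cells also express, had a fold of 0.594 (0.546 to 0.645), and Ocln (occludin) of 0.709 (0.527 to 0.951).

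Of 15 genes for signals and enzymes that act on the factors, 5 were at least 2-fold higher in the mesenchymal-like library, none was lower and 10 were not called, with a median log2 ratio of 0.29. Over all genes 10.7% were higher. Tgfb2 and Tgfb3, ligands that induce EMT, were 33.2-fold (12.6 to 124) and 27.2-fold (11.3 to 85.0) higher. The third ligand gene, Tgfb1, had 3 and 12 counts. The receptor gene Tgfbr2 was 4.44-fold higher (3.32 to 6.03), and Smad4, which carries the signal to the nucleus, was 2.38-fold higher (1.86 to 3.06). Among 14 corepressor and chromatin genes, 1 was higher, Loxl2, a lysyl oxidase that acts with SNAI1 (19.4-fold, 11.8 to 34.4), and none lower. Ehmt2, the target of UNC0638, had a fold of 0.973 (0.882 to 1.07). Among 14 other EMT-related factors, 3 were higher (Hmga2 27.5-fold, Sox9 4.83-fold, Id2 from 0 to 17 counts) and 1 lower (Gsc, 21 and 5 counts). Among 9 epithelial transcription and splicing factors, Klf5 (2.44-fold), Elf3 (2 and 10 counts) and Rbm35b (Esrp2, 5 and 16 counts) were higher and none lower.

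In the sorted series GFP-low is compared with GFP-mid and GFP-high, and GFP-mid with GFP-high, so the 3 comparisons share libraries. None of the 7 factors was called between GFP-mid and GFP-low, where 3.38% of all genes were higher and 0.685% lower. Between GFP-high and GFP-mid, 1 of 7 was lower (Zeb2, 0.145-fold, 0.0603 to 0.301), with 1.52% of all genes lower and 1.32% higher. Between GFP-high and GFP-low, 2 of 7 were lower, Zeb2 (0.158-fold, 0.0640 to 0.339) and Foxc2 (0.425-fold, 0.384 to 0.470), with 2.59% of all genes lower and 6.94% higher. With the deposited TPM or a pseudocount of 5 CPM, GFP-high against GFP-mid had 0 calls and GFP-high against GFP-low had Foxc2 alone. Foxc2 also had 0.622-fold (0.573 to 0.675) in GFP-mid against GFP-low and 0.684-fold (0.618 to 0.755) in GFP-high against GFP-mid, so its level went down at each step from GFP-low to GFP-high. Snai1 had a fold of 1.03 (0.877 to 1.2) in GFP-high against GFP-low, Zeb1 of 0.818 (0.681 to 0.984) and Twist1 of 1.44 (0.767 to 2.80).

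Of the 17 germ-cell markers, 7 were above and 10 below in GFP-high against GFP-low, with a median log2 ratio of -0.12. Gfra1 and Ret encode the receptor for GDNF, the growth factor that maintains these stem cells, and Etv5 is a factor induced by it. The 3 markers at least 2-fold lower in GFP-high, as Foxc2 was, were Gfra1 (0.333-fold, 0.301 to 0.367), Ret (0.448-fold, 0.428 to 0.468) and Etv5 (0.362-fold, 0.344 to 0.381). Utf1, a gene of undifferentiated spermatogonia, was the only one of the 17 at least 2-fold higher (7.30-fold, 4.34 to 13.1). The macrophage markers were also lower in GFP-high, with sums of 1830, 1674 and 216 CPM from GFP-low to GFP-high. From GFP-low to GFP-mid, where Foxc2 was 0.622-fold, 5 of 9 macrophage markers were above and 4 below 0, with a median log2 ratio of 0.04 and none called. With the mean of each experiment taken off, Foxc2 had a median r of 0.68 with 9 macrophage markers and of 0.22 with the 17 germ-cell markers (-0.78 to 0.94) over the 12 libraries. Without that step the medians were 0.49 and -0.37, so the sign for the germ-cell markers depended on it. The part of macrophage RNA in the Foxc2 values was not tested. In the same comparison 9 of 19 fibroblast markers were at least 2-fold higher in GFP-high and none lower, beside counts from GFP-low to GFP-high of 0, 4 and 6 for Twist2, 3, 7 and 5 for Prrx1, and 0, 0 and 1 for Snai2. With a pseudocount of 0.1 CPM, Twist2 was called higher in GFP-mid and in GFP-high than in GFP-low. None of 15 tested repressed epithelial genes was called in GFP-high against GFP-low. Of the 15 genes raised in EMT, 5 were higher and 1 lower, with Vim at 0.847-fold (0.657 to 1.09). Sparc was 5.08-fold and Col1a1 4.70-fold higher.

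The inhibitor series compared 3 doses of UNC0638 with the same DMSO library. At 0.5 µM, 1 of 7 factors was lower (Twist2), with 2.13% of all genes lower and 1.58% higher. At 1 µM, 3 of 7 were lower (Twist2, Zeb2 and Prrx1), with 4.12% of all genes lower and 2.59% higher. At 2 µM, 2 of 7 were lower (Twist2 and Prrx1), with 3.59% of all genes lower and 3.42% higher. None of the 7 was called higher at any dose. With the deposited TPM, Zeb2 had a log2 ratio of -0.98 at 1 µM and was under the filter, and with a pseudocount of 5 CPM, Twist2 was not called at 2 µM. With ratios centred on the germ-cell markers, Prrx1 was also called lower at 0.5 µM. The 3 factors that fell are those highest in the mesenchymal-like library against the epithelial-like one. Twist2 had a fold of 0.322 (0.194 to 0.517), 0.0971 (0.0404 to 0.202) and 0.398 (0.242 to 0.636) at 0.5, 1 and 2 µM. Prrx1 had a fold of 0.501 (0.355 to 0.70), 0.157 (0.0908 to 0.257) and 0.357 (0.234 to 0.532). Zeb2 had a fold of 0.717 (0.428 to 1.19), 0.157 (0.0592 to 0.355) and 0.559 (0.305 to 0.991). All 3 were lowest at the middle dose, so their levels did not follow the order of the doses.

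Snai1, Foxc2 and Zeb1 moved less than 2-fold. Snai1 had a fold of 0.890 (0.762 to 1.04), 0.839 (0.720 to 0.978) and 0.798 (0.674 to 0.943) at the 3 doses, and Foxc2 of 1.08 (0.928 to 1.26), 0.874 (0.747 to 1.02) and 0.737 (0.616 to 0.880). For both, the interval at 2 µM lies below 1. Zeb1 had a fold of 1.04, 0.719 (0.536 to 0.962) and 0.890, and Twist1 of 0.679, 0.809 and 1.36 (0.789 to 2.36). The fibroblast markers were lowered in the same libraries: 10, 19 and 16 of 19 were at least 2-fold lower at 0.5, 1 and 2 µM, with medians of -1.0, -2.18 and -1.87 on the log2 scale. Their summed level was also lowest at the middle dose, at 620 CPM against 838 CPM at 2 µM. The part of fewer fibroblasts in the fall of Twist2, Prrx1 and Zeb2 was not tested. Of the 15 genes raised in EMT, 9, 12 and 9 were lower, with Itga5 at 0.413, 0.335 and 0.323-fold and Sparc at 0.453, 0.168 and 0.240-fold. Of 15 repressed epithelial genes, 1 was lower at 0.5 µM (Cldn6, 10 and 1 counts), 1 was higher at 1 µM (Crb3, 11 and 35 counts) and 1 was lower at 2 µM (Dsp, 17 and 3 counts). Of the 17 germ-cell markers, none was called at any dose.

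In the feeder-removal series both later libraries were compared with day 0. At day 4, 1 of 7 factors was lower (Zeb2, 0.172-fold, 0.0501 to 0.476), with 1.03% of all genes lower and 1.25% higher. At day 9, 1 of 7 was lower (Twist2, 0.386-fold, 0.241 to 0.611), with 0.979% of all genes lower and 1.62% higher. Both calls were lost with a pseudocount of 5 CPM, and that of Zeb2 also with the deposited TPM. Twist2 had a fold of 0.552 (0.361 to 0.842) at day 4, and its day 0, 4 and 9 counts of 52, 44 and 32 came from libraries of increasing depth. The calls thus fell on a different factor at each day. Prrx1 had a fold of 0.571 (0.331 to 0.979) at day 4 and of 0.784 at day 9, neither of which was called. Zeb2 had 0.561 (0.274 to 1.14) at day 9, from 17 counts against 19, rounded from 18.7. Snai2 had 5, 0 and 12 counts at days 0, 4 and 9, and the counting interval of its day 4 fold reaches up to 0.712. Snai1 had a fold of 1.14 (0.991 to 1.32) and Foxc2 of 0.982 at day 9. The summed fibroblast markers were at 363, 364 and 434 CPM at days 0, 4 and 9, and 10 of 19 markers were above and 9 below 0 on the log2 scale at day 9 against day 0, with a median of 0.08. Of these 19, 3 were at least 2-fold higher at day 9 and 1 at day 4, and none was lower at either day.

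**Figure D4:**
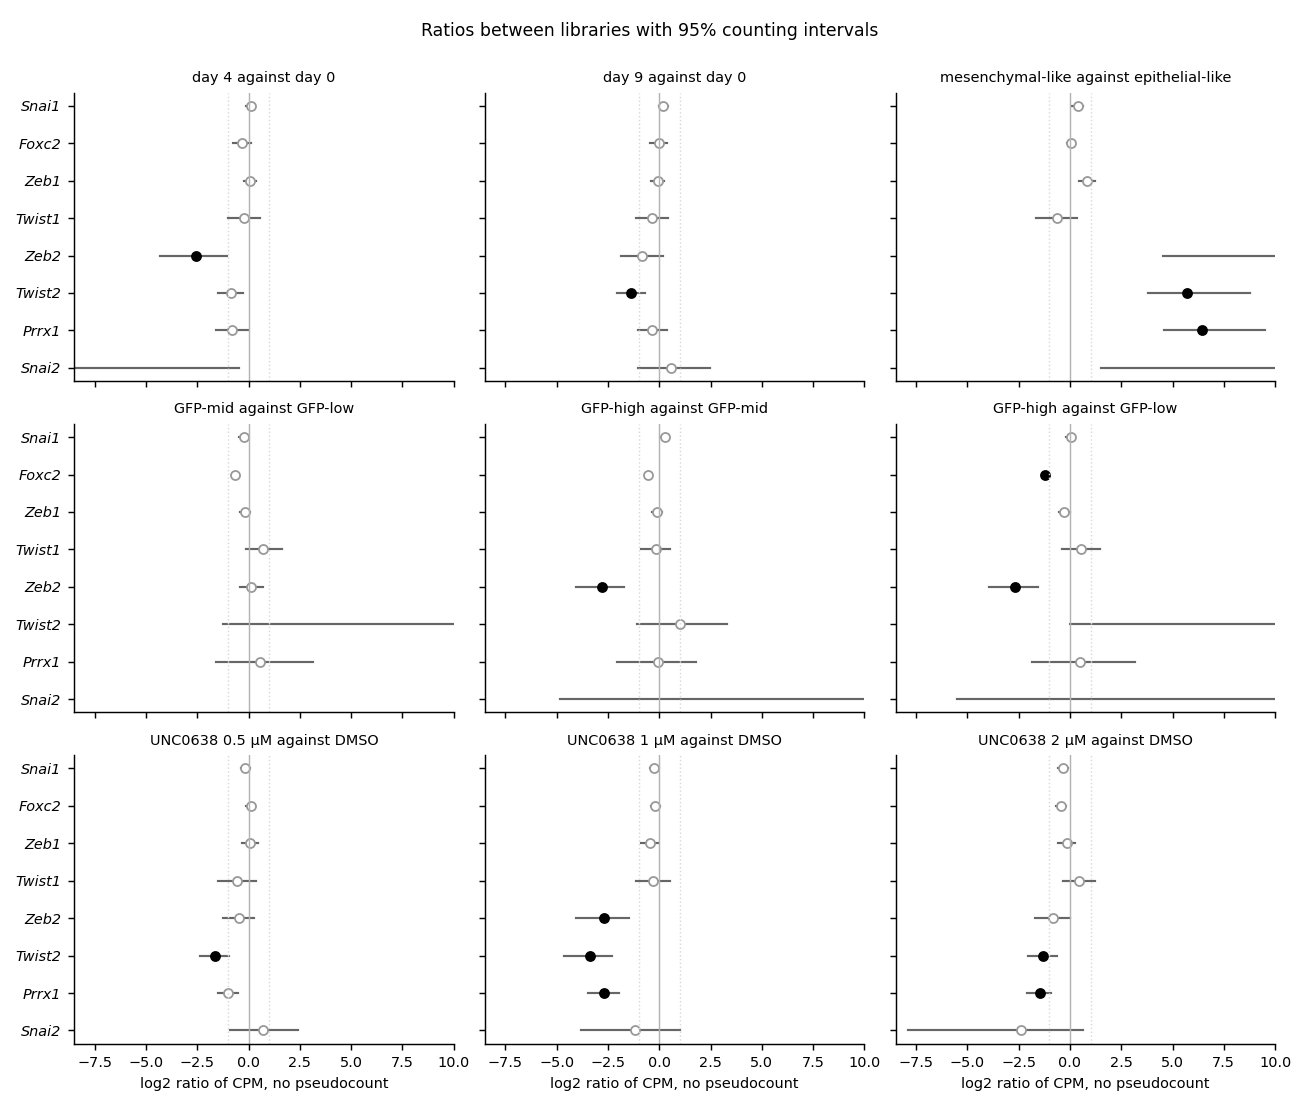
Log2 ratio of CPM without a pseudocount for the 8 factors in the 9 comparisons, with 95% counting intervals as lines; filled points were called at 2-fold on CPM + 1, open points were not, and dotted lines mark 2-fold. Lines that run to a panel's edge are intervals open on that side because a library had 0 counts; such a gene has no point, and Zeb2 in the density panel is one that was called.

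The genes whose pattern over the 12 libraries was most like each factor's were listed by Pearson's r of log2(CPM + 1) among 14300 other genes. These correlations describe libraries that share experiments, and no p is given. Prrx1 was most like Nnmt, Ccdc80 and Dclk1, each with r = 0.99. Twist2 was most like Ephx1 (0.97), 1110032E23Rik (0.97) and Fstl1 (0.96), the last a fibroblast marker. Twist2 and Prrx1 had an r of 0.95 with each other, the highest among the 7 factors. Foxc2 was most like Cotl1 (0.99), EG432798 (0.99) and Srgap2 (0.98), Zeb1 was most like Pctk3 (0.95), and Zeb2 was most like Nrp2 (0.96), Mgst1 (0.95) and Lgals3 (0.91). Snai1 was most like Mrps34 (0.95) and Twist1 most like Pfdn2 (0.92). The median r with the 19 fibroblast markers was 0.92 for Prrx1, 0.85 for Twist2, 0.79 for Snai1, 0.51 for Zeb2, 0.38 for Twist1, 0.13 for Zeb1 and 0.07 for Foxc2. When the mean of each experiment was taken off, Prrx1 was at 0.91, Twist2 at 0.91 and Snai1 at 0.78, and Zeb1 went from 0.13 to 0.73 and Twist1 from 0.38 to -0.29. The low value of Foxc2 stayed low, at -0.11. The most alike genes changed with that step, to Angptl2, Adamts2 and Rnase4 for Prrx1 and to Prkaa1, Emp1 and Rcn2 for Twist2. For Foxc2 they became Dusp6, Lonp2 and Cog7. Of the most alike genes named above, only Nrp2 and Mgst1, for Zeb2, stayed among the first 3.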

How the data were processed

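RNA was measured in 12 libraries made by a modified Smart-seq2 procedure, per the labels' protocols; 4 ATAC-seq libraries were not analysed here. The authors deposited a table per library with an expected count (RSEM's estimated count per gene, not normalized), a TPM and an FPKM, per the file headers. The deposited TPM values are scaled for transcript length and library size. The deposited FPKM values were not used. RSEM, Trim Galore and the mm10 build are named in the submitters' processing notes; the aligner and the annotation release are not given in the sources used here. Strandedness is not given either, so reads of Zeb2, Twist2, Prrx1 and Zeb1 cannot be told apart from those of RefSeq genes that overlap them. Between 8.52% and 10.7% of genes in a library had a count that was not whole; of the members, this held for Zeb2 at day 0.

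Counts were scaled to CPM with TMM factors (0.912 to 1.07) from edgeR 4.0.16 in R 4.3.3, and 14301 genes whose mean over the 12 libraries reached 1 CPM were tested. Ratios are log2 of CPM + 1, called at 2-fold, and the pseudocount understates changes of low genes. Intervals, at 95%, are Clopper-Pearson for ratios (how the reads split between 2 libraries) and exact Poisson for levels. They and the floor of 3 counts cover counting error only, since the reads come from amplified cDNA and carry no molecular identifiers. Folds against 0 counts use the floor per library and are lower bounds. Expected counts were rounded to whole numbers for CPM, ratios and intervals. Ratios and factors were tested on simulated data. Groups come from the labels, each with 1 library. The 9 comparisons are those within an experiment, with no test.

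All 8 members were described. Of the other lists, genes with at least 50 counts in a compared library, or at or under 3 counts, could be named; other list genes given here (Krt8, Elf3, Rbm35b, Gsc, Id2, Tgfb1, Crb3, Cldn4, Cldn6 and Dsp) were named because they made up small counts of called genes, after their values were seen. For each member, the 3 genes with the highest r could be named. The members and lists were chosen with earlier results of these data known. In the lists, older symbols were matched through a RefSeq table of GRCm38.p6; Rhox5 of the Sertoli list had no match.

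The alternatives were scaling by total counts or by DESeq2 1.42.0 size factors, use of the TPM as deposited, a pseudocount of 0.1 or 5 CPM, a filter at 10 CPM or none, other levels for presence, and likeness with experiment means off. Centring on the germ-cell markers and presence in GFP-high alone were added after seeing the data. Python 3.11.15 was used with scipy 1.17.1, numpy 2.4.6, matplotlib 3.10.9 and pandas 2.3.3.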

Additional observations from a re-analysis of the deposited data

How the results depend on the processing

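Of 79 counts of members recomputed under other settings, 59 stayed within 1.5 times the reported count and none reversed; of 360 log2 ratios of members, 32 moved by over 1.5 times and 5, none of them called, changed sign. The largest shifts were 0.03 under DESeq2 size factors, 0.13 under total counts, 2.35 with TPM, and 3.26 and 2.08 with pseudocounts of 0.1 and 5 CPM, the last 4 for Zeb2 between densities. The reported numbers of members past 2-fold were 1 at day 4, 1 at day 9, 3 between densities, 0 in GFP-mid against GFP-low, 1 in GFP-high against GFP-mid, 2 in GFP-high against GFP-low, and 1, 3 and 2 at 0.5, 1 and 2 µM. With the deposited TPM, the members past 2-fold were 0 at day 4, 0 in GFP-high against GFP-mid and 1 in GFP-high against GFP-low; Zeb2, whose mean TPM is under the filter of 1, was not tested in any comparison (log2 ratios of 2.08 between densities and -0.98 at 1 µM). With a pseudocount of 5 CPM they were 0 at day 4, 0 at day 9, 0 in GFP-high against GFP-mid, 1 in GFP-high against GFP-low and 1 at 2 µM UNC0638, and with 0.1 CPM GFP-mid against GFP-low had 1 (Twist2), and GFP-high against GFP-low had Twist2 beside Zeb2 and Foxc2. With a filter at 10 CPM, which leaves out Twist2, Zeb2, Prrx1 and Twist1, they were 1 in GFP-high against GFP-low and 0 at days 4 and 9, in the density comparison, in GFP-high against GFP-mid and at 0.5, 1 and 2 µM. Members in no sorted fraction were 3 at under 10 counts, 3 at under 1 TPM and 3 with counts scaled to the smallest library, against 1 reported. Centring on germ-cell markers gave 2 at 0.5 µM (Twist2 and Prrx1) and added Zeb1 between densities. Apart from the filters, the cause of these differences was not tested. With TPM the median log2 ratio of all genes was 0.13 at day 9 and 0.12 in GFP-high against GFP-low, from 0.02 and -0.02, and Foxc2 in the latter was -1.07 against -1.22. The log2 ratio of Zeb2 between densities was 2.35 with a pseudocount of 5 CPM. In GFP-high alone, 7 members passed 3 counts. Leaving out a replicate was not possible with 1 library per group. No paired analysis was possible because each RNA group holds a single library with no shared replicate number. Depth limits Snai2 and Twist1, with 0 to 44 counts in every library, and the low libraries of Zeb2, Twist2 and Prrx1.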

Other observations

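The levels of 4 epithelial genes, chosen from the fixed lists after their values were seen, differed between experiments. Grhl2, an epithelial transcription factor that represses Zeb1 in epithelia, was at 83.4, 94.5 and 86.6 CPM in the feeder-removal series and between 27.3 and 53.2 CPM in the other 9 libraries. Ocln (occludin) was at 77.0 to 82.1 CPM in the feeder-removal series and 93.9 to 131 CPM in the sorted fractions, against 18.6 to 30 CPM in the density and inhibitor libraries. Marveld2 (tricellulin), a gene of tight junctions, was at 59.3 to 86.0 CPM in the sorted fractions and 18.4 to 36.2 CPM in the others. Rbm35a (Esrp1), an epithelial splicing regulator, was at 22.8 to 34.8 CPM in the feeder-removal series and 58.2 to 108 CPM elsewhere. The experiment and its batch cannot be told apart, and no difference between experiments was tested.

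Of 15 other factors tied to EMT, 12 had more than 3 counts in each of the 3 sorted fractions. Foxc1 had 0 in all 3, and Foxq1 and Gsc passed 3 counts in some. Klf8, a zinc-finger factor, lay between 56.3 CPM in the mesenchymal-like library and 145 CPM at day 9. Sox4, a high-mobility-group factor, was 2.66-fold (2.27 to 3.12) higher in GFP-high than in GFP-low and 1.98-fold (1.71 to 2.31) higher with 2 µM UNC0638 than with DMSO. Prrx2, the paralogue of Prrx1, was at 16.0 CPM in the epithelial-like and 16.2 CPM in the mesenchymal-like library, a fold of 1.01 (0.712 to 1.44), while Prrx1 differed 88.0-fold between the same libraries. In GFP-high against GFP-low, Prrx2 was lower (0.350-fold, 0.222 to 0.538).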
